A study of Homo sapiens with 24 samples.

Results

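The 10 genes CLDN1, CLDN2, CLDN12, OCLN, TJP1, CDH1, KRT8, KRT18, KRT19 and KRT23 code for proteins of epithelial junctions and for keratins. They were taken by symbol from the 26475 gene symbols of the count files, and all 10 were found. The study profiled RNA of HepG2, a single human hepatocellular carcinoma cell line, by RNA sequencing in 24 libraries. There were 8 groups of 3 libraries each, and all were HepG2 cells with no other genetic change named. The control group received the solvent DMSO. The 3 inhibitor groups received ABBV-075 at 50 nM, ABBV-744 at 50 nM or ABBV-744 at 500 nM. The other 4 groups received interferon gamma (IFNγ), either alone or together with one of the same 3 inhibitor treatments. ABBV-075 blocks both bromodomains of the BET proteins, which read acetylated histones at active genes, and ABBV-744 prefers their second bromodomain. The sources give no dose of IFNγ and no treatment time for ABBV-744 or IFNγ, so the groups may differ in time. For ABBV-075 the study's methods give a shorter time than for the treatments listed together with DMSO. ABBV-075 and its DMSO control may therefore differ in time as well, which was not tested. The study's methods describe independent triplicate samples for DMSO and ABBV-075. For the other groups no source says that the 3 libraries came from separate cultures, so their p-values measure the spread between these libraries, which may be technical.

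Tight junctions seal the space between neighbouring epithelial cells, and in liver they keep bile in the canaliculus apart from blood. Claudins span the membrane and set which ions and water pass, occludin (OCLN) lies beside them, and ZO-1, the product of TJP1, ties both to actin. E-cadherin (CDH1) holds cells together at adherens junctions. Keratins pair 1 type I with 1 type II protein into filaments that end at desmosomes. KRT8 and KRT18 are the pair of hepatocytes, KRT19 is known from bile duct cells, and KRT23 is another type I keratin.

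Counts on genes ran from 2978982 to 4304103 a library, with a median of 3462418.5, and 56 to 69.4% of reads mapped to several places and were not counted. HEXIM1, a gene known to rise under BET inhibitors, had a mean of 53.8 CPM (counts scaled to the size of the library) in DMSO, 144.7 with ABBV-075, 64.8 with ABBV-744 at 50 nM and 89.4 at 500 nM. With IFNγ it was 47.0 without inhibitor, 134.9 with ABBV-075, 49.5 with ABBV-744 at 50 nM and 71.5 at 500 nM. The list for this check also held SERPINI1 and MYC. Its 3 genes summed to 158 to 176 CPM in DMSO, 228 to 235 with ABBV-075, and 156 to 171 and 173 to 193 with ABBV-744 at 50 and 500 nM. With IFNγ the sums were 157 to 170 without inhibitor, 213 to 231 with ABBV-075, and 125 to 137 and 155 to 162 with ABBV-744 at 50 and 500 nM. Summed levels of 8 hepatocyte markers lay between 19347 and 26979 CPM in all libraries, so the label of a liver line had its markers. Fibroblast and endothelial markers summed to at most 7.36 and 2.15 CPM, the 5 leukocyte markers to 1093 to 1874 CPM, nearly all of it LYZ, while PTPRC was at 0 in every library. Bile duct markers summed to 391 to 660 CPM, with 571 to 606 in DMSO, 446 to 505 with ABBV-075, 391 to 463 with ABBV-744 at 50 nM and 402 to 456 at 500 nM. With IFNγ they summed to 557 to 588 without inhibitor, 447 to 492 with ABBV-075, 645 to 660 with ABBV-744 at 50 nM and 546 to 593 at 500 nM. The fibroblast markers, of which 5 of 6 never passed 3 counts, summed to 5.85 to 7.36 CPM in DMSO and 1.15 to 2.71 with ABBV-075. The part of these lists in the results was not tested.

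Libraries also differed in how GC-rich genes stood against GC-poor ones. The tilt, the median log2 CPM deviation of GC-rich genes (over 55.9% GC) minus that of GC-poor genes (under 41.4%), was 0.0872 to 0.326 in DMSO and 0.513 to 1.07 with ABBV-744 at 50 nM. With IFNγ and ABBV-744 at 50 nM it was -0.712 to -0.647, against 0.163 to 0.567 in IFNγ. In the ABBV-075 group, 2 libraries were at -0.732 and -0.407 and replicate 3 at 0.195. Among the 10 genes, the longest transcripts ran from 38.1% GC in CLDN12, 39.9% in OCLN and 41.3% in CLDN1 to 55.7% in KRT18, 56.2% in KRT8 and 61.8% in KRT19. The fit with a GC correction is therefore given beside the changes that it moves.

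Per length, the keratins were the most abundant of the 10 genes. In DMSO, KRT8 had 634.5 ± 41.9 CPM per kb of its longest transcript (SD, n = 3), KRT19 173.6 ± 6.10, KRT18 67.7 ± 2.78 and KRT23 37.4 ± 1.4996. The junction genes followed with CLDN1 at 25.5 ± 3.94, CLDN12 at 15.3 ± 1.57, TJP1 at 6.92 ± 1.14, CLDN2 at 4.78 ± 0.688, OCLN at 2.92 ± 0.379 and CDH1 at 2.11 ± 0.194. No neighbours in this order overlapped in DMSO. The order depends on the transcript taken: over the median length of the annotated transcripts CLDN12 would be at 81.1 and CLDN1 at 45.2 CPM per kb, and CDH1 at 10.5, above OCLN at 5.71 and CLDN2 at 4.85. With ABBV-075, KRT23 at 4.68 ± 0.548 stood below TJP1 at 9.71 ± 0.991, and CLDN2 at 0.212 ± 0.0983 was last.

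**Figure D1:**
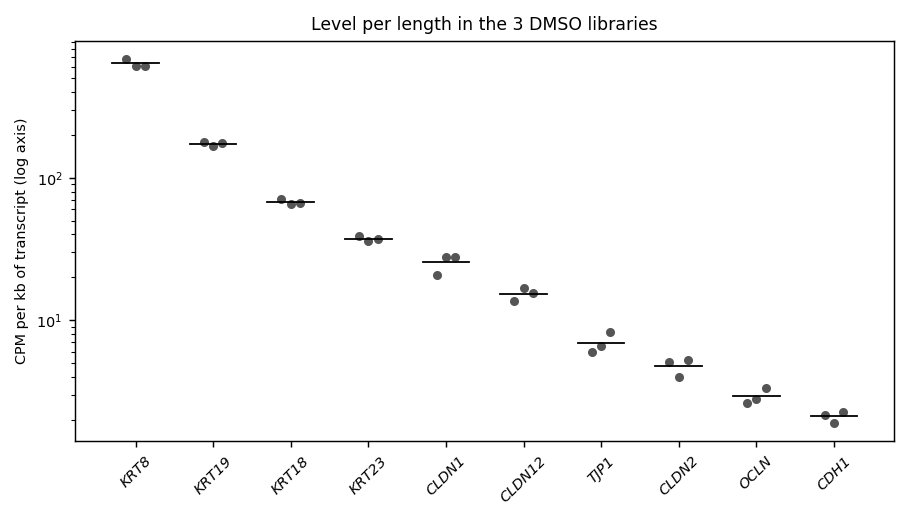
Level per length of the 10 genes in the 3 DMSO libraries, as CPM per kb of the longest annotated transcript on a log axis; points are libraries and lines are means. The 4 keratins lie above the junction genes, from KRT8 at a mean of 634.5 down to CDH1 at 2.11, and no neighbours overlap.

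In the hg38 build, KRT8 (12:52897187-52949954, minus strand) and KRT18 (12:52948871-52952906, plus strand) overlap at their ends and have 51 and 68 annotated pseudogenes. Reads shared with these copies are not counted, so the levels of KRT8 and KRT18 are uncertain, as are, to a smaller degree, those of KRT19 (17:41523617-41528308, minus; 5 pseudogenes) and OCLN (5:69492292-69558104, plus; 1 pseudogene). When reads of both strands were pooled, the KRT18 count was 75.6% of its strand-matched count. KRT23 (17:40922700-40937646, minus) has no annotated pseudogene. CLDN1 lies at 3:190305707-190322446 (minus), CLDN12 at 7:90383721-90513402 (plus), TJP1 at 15:29699367-29968915 (minus) and CDH1 at 16:68737292-68835537 (plus). The span of CLDN12 overlaps those of CDK14 and GTPBP10 on the same strand, which strand-matched counts cannot keep apart where exons coincide. CLDN2 at X:106900164-106930861 (plus) overlaps MORC4 and RIPPLY1 on the opposite strand, and the strand-matched counts keep these apart.

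ABBV-075 lowered CLDN2, KRT23 and CDH1, with and without IFNγ, and both doses of ABBV-744 lowered CLDN2 and KRT23. With IFNγ alone none of the 10 genes was called without GC correction. Against DMSO, 5 of the 10 genes passed an adjusted p of 0.05 in edgeR's quasi-likelihood test with ABBV-075, where 39.3% of all 11244 genes tested did. TJP1 was higher, and CLDN2, CDH1, KRT19 and KRT23 were lower. With ABBV-744 at 50 nM 5 of 10 passed, against 18.9% of all genes: KRT18 was higher, and CLDN1, CLDN2, CLDN12 and KRT23 were lower. At 500 nM, CLDN1, CLDN2 and KRT23 were lower, 3 of 10 against 15.3%. In cells with IFNγ, set against IFNγ alone, 6 of 10 genes passed with ABBV-075 (56.6% of all genes), 9 with ABBV-744 at 50 nM (51.7%) and 8 at 500 nM (45.7%). With a log2 fold change of at least 1.5 in size also required, CLDN2 and KRT23 passed with ABBV-075 (4.28% of all genes passed) and CLDN2 with ABBV-744 at 50 nM (0.279%) and 500 nM (0.342%). With IFNγ these were CLDN2, KRT23 and CDH1 for ABBV-075 (6.17%), CLDN2 and KRT23 for ABBV-744 at 50 nM (2.3%) and CLDN2, KRT23 and CDH1 at 500 nM (2.11%). The inhibitor groups without IFNγ share the DMSO libraries and those with IFNγ share the IFNγ libraries.

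**Figure D2:**
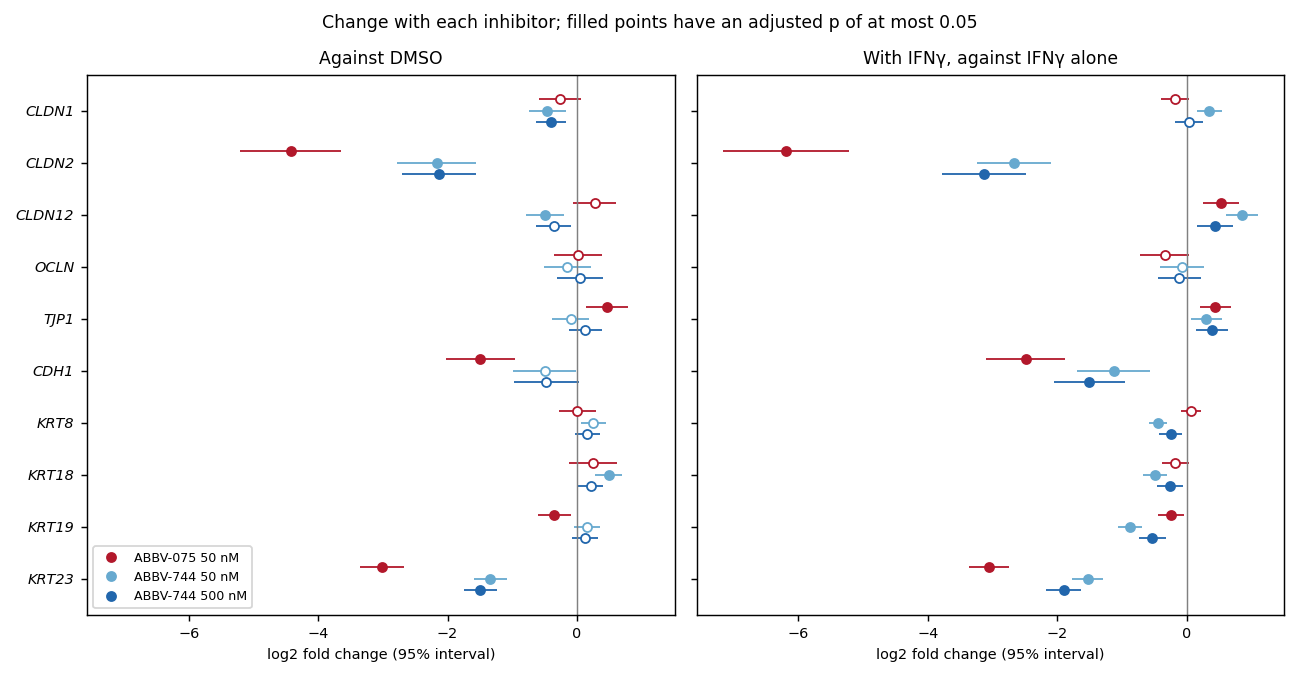
Log2 fold change of each gene with its 95% interval for the 3 inhibitor treatments, against DMSO on the left and, in cells with IFNγ, against IFNγ alone on the right; filled points have an adjusted p of at most 0.05. CLDN2 at -4.42 and -6.19, and KRT23 at -3.02 and -3.05, stand farthest left under ABBV-075, while most other genes lie near 0.

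The claudins parted. CLDN2, which forms a pore for cations and water in leaky epithelia, gave 57, 53 and 65 counts in the 3 DMSO libraries (15.2, 11.8 and 15.5 CPM). With ABBV-075 it gave 3, 3 and 1 counts (0.722, 0.859 and 0.301 CPM). The groups lie far apart, and every treated library is at or below 3 counts. In bulk RNA, fewer cells with the transcript and less of it per cell cannot be told apart. The summed counts fell from 175 to 7, a level 22.1-fold lower with an exact 95% interval of 10.5 to 55.7 for counting error, and the fitted log2 fold change was -4.42 (SE 0.359, adjusted p = 4.17e-06). ABBV-744 left more: 15, 11 and 4 counts at 50 nM (4.46, 3.43 and 1.27 CPM) and 9, 14 and 9 at 500 nM (2.61, 4.49 and 2.59 CPM). No library of either dose reached the lowest DMSO library. The log2 fold changes were -2.17 (SE 0.299, adjusted p = 2.17e-05) and -2.13 (SE 0.28, adjusted p = 2.98e-06), or 4.49-fold and 4.37-fold lower.

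With IFNγ, CLDN2 fell with each inhibitor as well. IFNγ alone gave 43, 60 and 63 counts (11.6, 17.6 and 17.5 CPM), overlapping DMSO, with a log2 fold change of 0.15 (SE 0.195, adjusted p = 0.803). IFNγ with ABBV-075 gave 1, 1 and 0 counts, a sum of 2 against 166 in IFNγ, 85.5-fold lower with an exact interval of 23.3 to 712. At these counts the size of the fold is poorly fixed, and its fitted value of -6.19 depends on 2 reads. IFNγ with ABBV-744 gave 9, 10 and 8 counts at 50 nM and 6, 4 and 7 at 500 nM, with log2 fold changes of -2.67 (SE 0.281) and -3.13 (SE 0.32) and adjusted p of 1.37e-09 and 2.04e-09 against IFNγ. CLDN2 made up 7.05 to 11.2% of the counts of the 3 claudins in DMSO, 0.25 to 0.609% with ABBV-075 and 1.08 to 4.37% with ABBV-744 at 50 nM. With GC correction the fall of CLDN2 in the 3 comparisons with DMSO was -4.27, -2.30 and -2.22.

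CLDN1, a claudin that tightens the barrier, and CLDN12, which lacks the PDZ-binding end of most claudins, had smaller changes than CLDN2, and several of them depended on the GC correction. In DMSO, CLDN1 had 72.1, 96.1 and 94.99 CPM, and with ABBV-075 83.2, 76.5 and 63.1, which overlap. Its log2 fold change was -0.26 (SE 0.149, adjusted p = 0.183), and -0.47 (adjusted p = 0.00189), then called, with GC correction. ABBV-744 gave 68.1, 46.5 and 75.8 CPM at 50 nM, overlapping DMSO, and 66.2, 64.1 and 68.7 at 500 nM, all below DMSO. The changes were -0.46 (adjusted p = 0.0229) and -0.40 (adjusted p = 0.017), and each lost its call without DMSO replicate 2 or 3 and without 1 treated library (replicate 2 at 50 nM, replicate 3 at 500 nM), with values between -0.60 and -0.28 at 50 nM and between -0.52 and -0.33 at 500 nM. GC correction left -0.24 (adjusted p = 0.158) at 50 nM, no longer called, and -0.27 (adjusted p = 0.0422) at 500 nM. With IFNγ, CLDN1 had 97.2, 101.6 and 91.7 CPM without inhibitor and 110.8, 126.5 and 129.8 with ABBV-744 at 50 nM, which do not overlap. That rise of 0.35 (SE 0.0951, adjusted p = 0.00266) turned to -0.09 with GC correction. With ABBV-075 the change of CLDN1 on top of IFNγ was -0.18 (adjusted p = 0.149), and with ABBV-744 at 500 nM it was 0.04 (adjusted p = 0.785), which GC correction turned to -0.46 and -0.27, both then called.

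For CLDN12, DMSO gave 48.7, 59.8 and 55.6 CPM, ABBV-075 80.4, 63.9 and 56.8, ABBV-744 at 50 nM 46.1, 28.7 and 40.9 and ABBV-744 at 500 nM 47.3, 34.6 and 45.4. ABBV-075 overlapped DMSO, and both doses of ABBV-744 lay below it. The change was 0.27 (SE 0.153, adjusted p = 0.172) with ABBV-075, -0.49 (SE 0.142, adjusted p = 0.0181) with ABBV-744 at 50 nM and -0.36 (SE 0.132, adjusted p = 0.0611) at 500 nM. With GC correction these were -0.11, -0.18 and -0.19 (adjusted p = 0.403, 0.324 and 0.191), so the direction turned with ABBV-075 and the call at 50 nM was lost. Leaving out DMSO replicate 2 or 3 or ABBV-744 replicate 2 or 3 ended the call at 50 nM, with values from -0.63 to -0.32. CLDN12 gained a call with ABBV-075 without treated replicate 3, and with ABBV-744 at 500 nM without replicate 1 of either group. With IFNγ, CLDN12 was higher with all 3 treatments, by 0.53 (adjusted p = 0.000965), 0.85 (adjusted p = 4.92e-07) and 0.44 (adjusted p = 0.0094), the last lost without IFNγ replicate 3 (lowest value 0.28). None of the 3 held with GC correction, where they were -0.02, 0.11 and -0.16. CLDN12 has the lowest GC content of the 10 genes.

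**Figure D3:**
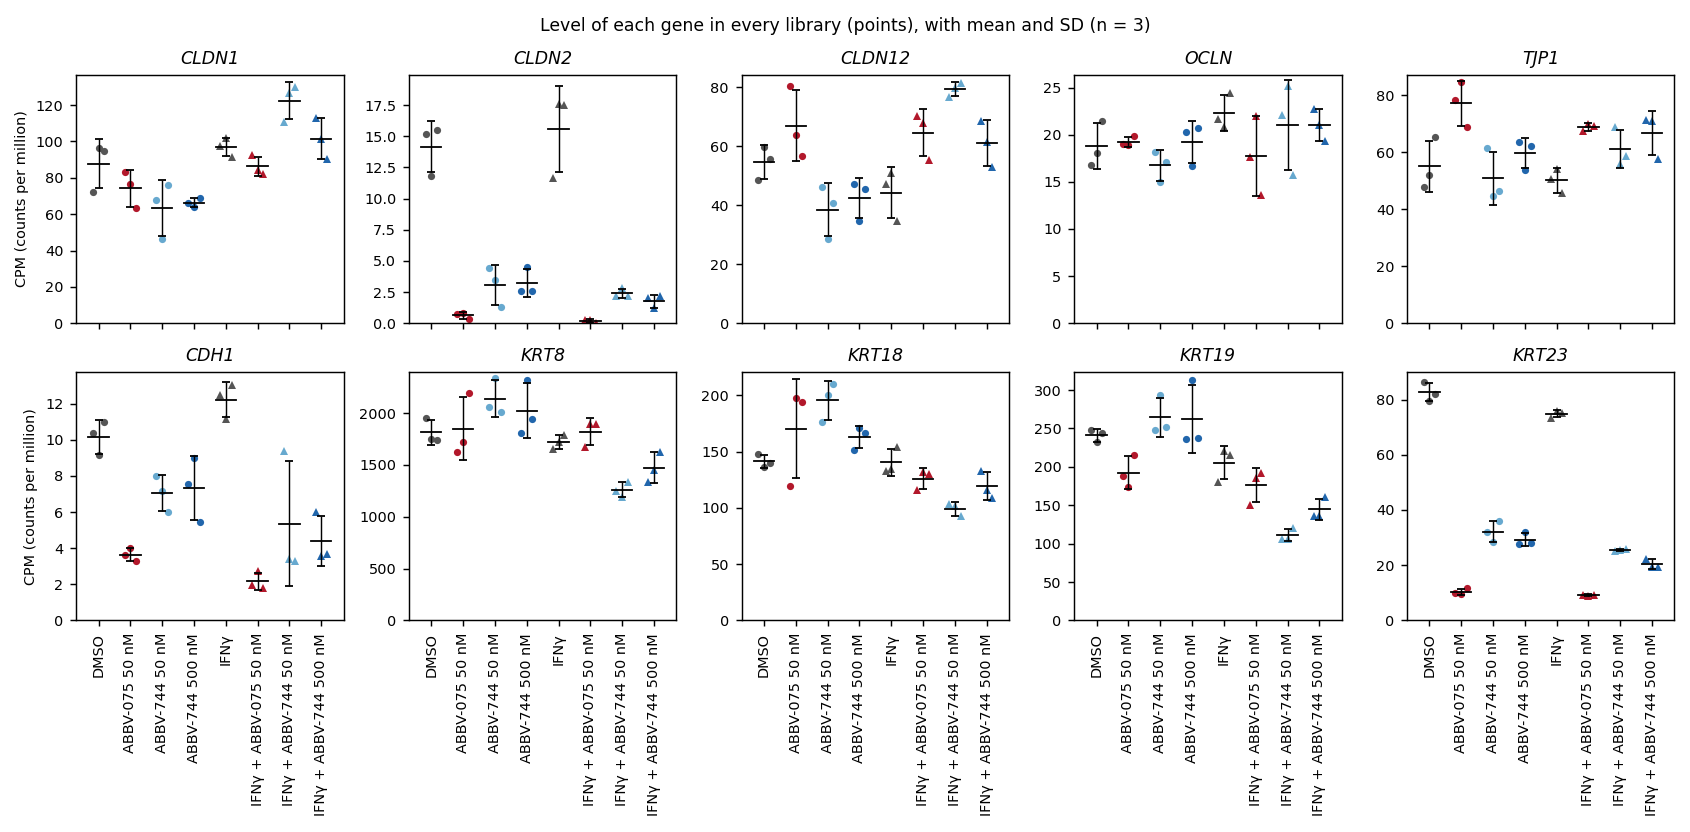
Level of each gene in CPM in every library (points: circles without IFNγ, triangles with it) with the mean and SD of the 3 libraries of a group; axes start at 0. CLDN2 and KRT23 drop with every inhibitor treatment and lowest with ABBV-075, for KRT23 from 82.6 to 10.4 CPM on average, and CDH1 in IFNγ with ABBV-744 at 50 nM has 1 library at 9.37 and 2 near 3.4.

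The promoters of CLDN1 and CLDN2 are shown because the 2 claudins parted under the same treatments. They are the 250 bases before the RefSeq start sites (GRCh38.p14), read 5′ to 3′ on the strand of the gene, with CG dinucleotides in capitals. The CLDN1 promoter lies at chr3:190322447-190322696 (minus strand), and the 2 starts of CLDN2 at chrX:106899914-106900163 and chrX:106918110-106918359 (plus strand).
CLDN1: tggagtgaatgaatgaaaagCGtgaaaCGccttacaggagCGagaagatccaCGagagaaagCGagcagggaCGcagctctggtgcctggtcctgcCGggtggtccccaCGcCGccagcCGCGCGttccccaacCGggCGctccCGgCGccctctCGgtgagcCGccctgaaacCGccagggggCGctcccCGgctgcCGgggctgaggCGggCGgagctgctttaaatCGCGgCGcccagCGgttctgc
CLDN2 start 1: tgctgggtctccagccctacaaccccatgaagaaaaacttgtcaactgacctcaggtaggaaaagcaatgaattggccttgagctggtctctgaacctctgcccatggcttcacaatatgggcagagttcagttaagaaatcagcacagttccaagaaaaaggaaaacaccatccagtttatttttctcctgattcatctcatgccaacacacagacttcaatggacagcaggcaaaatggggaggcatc
CLDN2 start 2: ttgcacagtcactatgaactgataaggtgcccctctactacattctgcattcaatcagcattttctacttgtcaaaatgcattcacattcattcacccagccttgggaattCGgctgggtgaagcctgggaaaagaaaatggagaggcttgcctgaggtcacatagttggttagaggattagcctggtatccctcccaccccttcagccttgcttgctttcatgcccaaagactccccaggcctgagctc
The CLDN1 window holds 28 CG dinucleotides at 68.8% GC, more than 84.1% of the 35116 promoters in the table, whose median is 11. The CLDN2 windows hold 0 and 1, at 46 and 48.8% GC. In start 1 of CLDN2 an E-box (CANNTG) lies at -208, a gamma-activated site (TTCNNNGAA) at -101 and an AP-1 site (TGANTCA) at -60, letters that 61.8, 6.57 and 6.57% of all promoters hold on either strand. CLDN1 holds 2 GC boxes (GGGCGG, in 42.6% of promoters), and start 2 of CLDN2 none of the 6 motifs searched. The other 2 motifs were TATAAA (10.7%) and the HNF1 half-site GTTAAT (6.23%), which neither gene holds. The E-box was searched without regard to the middle bases, so most promoters hold one, and no motif here includes another. Of the other members, KRT8 has 1 CG dinucleotide in its window (12:52926470-52926719), which lies inside the annotated gene. CLDN12 has 12, OCLN 24 and 20 at its 2 starts, and TJP1 between 2 and 27 at 4. Which starts HepG2 cells use was not tested, nor was any link of CG content to the changes. The promoters of CDH1, KRT18, KRT19 and KRT23 are not shown.

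Of the keratins, KRT23 fell with every inhibitor treatment, and KRT19 fell with ABBV-744 on top of IFNγ and with ABBV-075 against DMSO. KRT23 had 86.2, 79.6 and 82.1 CPM in DMSO and 9.86, 9.45 and 11.7 with ABBV-075. The groups are far apart, by 8.10-fold (log2 fold change -3.02, SE 0.157, adjusted p = 1.97e-07). ABBV-744 gave 32.1, 28.4 and 36.1 CPM at 50 nM and 27.6, 32.04 and 28.2 at 500 nM. Both doses lay between ABBV-075 and DMSO with no overlap to either. These falls were 2.53-fold (log2 fold change -1.34, SE 0.123, adjusted p = 6.44e-08) and 2.81-fold (-1.49, SE 0.124, adjusted p = 4.73e-10).

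In IFNγ alone KRT23 had 73.4, 75.8 and 75.3 CPM, all below DMSO, but the change of -0.14 (SE 0.0966) had an adjusted p of 0.569. IFNγ with ABBV-075 gave 9.19, 8.70 and 9.34 CPM, with ABBV-744 at 50 nM 25.2, 25.7 and 26.0, and at 500 nM 22.4, 19.5 and 19.3. Libraries of a group lay close together and no 2 of these groups overlapped. The log2 fold changes against IFNγ were -3.05 (SE 0.153, adjusted p = 5.92e-19), -1.53 (SE 0.117, adjusted p = 1.37e-12) and -1.90 (SE 0.132, adjusted p = 8.08e-13). KRT23 was 3.54 to 3.71% of the counts of the 4 keratins in DMSO and 0.448 to 0.507% with ABBV-075. With GC correction the 6 falls were -2.88, -1.44 and -1.56 without IFNγ and -2.79, -1.31 and -1.65 with it.

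KRT8, the type II partner, had 1955, 1748 and 1745 CPM in DMSO and 1627, 1726 and 2196 with ABBV-075, which overlap, with a log2 fold change of 0.01 (SE 0.134, 95% interval -0.28 to 0.30, adjusted p = 0.973). It was 0.26 (adjusted p = 0.0572) with ABBV-744 at 50 nM and 0.16 (adjusted p = 0.251) at 500 nM. The 3 values with GC correction were 0.18, 0.07 and 0.04, none called. Without treated replicate 1, KRT8 gained a call with ABBV-744 at 50 nM and at 500 nM. With IFNγ, KRT8 ranged from 1653 to 1789 CPM without inhibitor and from 1195 to 1337 with ABBV-744 at 50 nM, which do not overlap. The change of -0.44 (SE 0.068, adjusted p = 2.31e-06) was -0.10 with GC correction, no longer called. At 500 nM it was -0.25 (adjusted p = 0.0203), which turned to 0.04 with GC correction and lost its call without IFNγ replicate 2 or 3 or treated replicate 1 or 2 (values from -0.31 to -0.16). With ABBV-075 it was 0.07 (adjusted p = 0.472), and 0.33 with GC correction, then called.

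KRT18, its type I partner, had 147.6, 136.3 and 139.9 CPM in DMSO and 119.3, 198.0 and 194.2 with ABBV-075. Replicate 1 of ABBV-075 lies below DMSO and the other two above. The change was 0.25 (SE 0.168, adjusted p = 0.258), and 0.46 and called without that replicate. With GC correction it was 0.41 (adjusted p = 0.0107), also called. ABBV-744 at 50 nM gave 176.2, 200.6 and 210.2 CPM, all above DMSO, a rise of 0.49 (SE 0.0986, adjusted p = 0.00136) that was 0.31 (adjusted p = 0.01) with GC correction. At 500 nM it was 0.21 (adjusted p = 0.121), or 0.10 with GC correction. With IFNγ the direction turned: KRT18 was lower, at -0.49 (adjusted p = 3.71e-05) at 50 nM and at -0.26 (adjusted p = 0.033) at 500 nM, values that GC correction brought to -0.16 and 0.04, neither called. The call at 500 nM was also lost without replicate 2 or 3 of IFNγ or of the treated group (values from -0.32 to -0.18). With ABBV-075 the change on top of IFNγ was -0.17 (adjusted p = 0.141), which turned to 0.09 (adjusted p = 0.292) with GC correction.

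KRT19 had 248.4, 232.0 and 243.7 CPM in DMSO and 188.4, 173.3 and 215.3 with ABBV-075, all below DMSO. The log2 fold change was -0.35 (SE 0.116, adjusted p = 0.0307), and -0.21 (adjusted p = 0.0435) with GC correction. It lost its call without any 1 of the DMSO libraries or without ABBV-075 replicate 2, with values from -0.44 to -0.27. ABBV-744 did not call KRT19 (0.15, adjusted p = 0.265 at 50 nM and 0.13, adjusted p = 0.429 at 500 nM), nor with GC correction (-0.09 and -0.02). With IFNγ, KRT19 ranged from 180.9 to 220.3 CPM without inhibitor, from 106.2 to 120.4 with ABBV-744 at 50 nM and from 136.4 to 160.9 at 500 nM, with no overlap. These changes of -0.87 (SE 0.0909, adjusted p = 1.07e-09) and -0.53 (SE 0.101, adjusted p = 6.9e-05) held with GC correction at -0.56 and -0.33. With ABBV-075 the change of -0.24 (adjusted p = 0.0403) overlapped IFNγ, was lost without IFNγ replicate 2 or 3 or treated replicate 1 (values from -0.33 to -0.12), and was -0.12, not called, with GC correction.

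CDH1 fell with ABBV-075. It gave 39, 41 and 46 counts in DMSO (10.4, 9.14 and 10.98 CPM) and 15, 14 and 11 with ABBV-075 (3.61, 4.01 and 3.31 CPM). The groups do not overlap, and the level was 2.81-fold lower (log2 fold change -1.49, SE 0.247, adjusted p = 0.000692). ABBV-744 gave 8.02, 7.17 and 6.02 CPM at 50 nM and 7.54, 8.97 and 5.46 at 500 nM. All 6 libraries lie below DMSO, but neither change was called (-0.50, 95% interval -0.99 to -0.01, adjusted p = 0.143; -0.47, interval -0.97 to 0.03, adjusted p = 0.202).

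With IFNγ all 3 treatments called CDH1 lower. IFNγ alone gave 12.5, 11.2 and 13.1 CPM, all above DMSO, a change of 0.28 (SE 0.206) with adjusted p = 0.594. IFNγ with ABBV-075 gave 1.99, 2.72 and 1.81 CPM, 5.61-fold lower than IFNγ (log2 fold change -2.49, SE 0.3, adjusted p = 6e-09). With ABBV-744 at 50 nM, replicate 1 gave 39 counts (9.37 CPM) and the other two 12 each (3.39 and 3.32 CPM). Replicate 1 stands apart, and all 3 lie below IFNγ. The change was -1.13 (SE 0.28, adjusted p = 0.00105), and -1.86 without replicate 1, over 1.5 times as large. At 500 nM CDH1 had 6.02, 3.55 and 3.68 CPM, with a change of -1.50 (SE 0.268, adjusted p = 2.82e-05). GC correction left -1.38 for ABBV-075 without IFNγ and -2.28, -0.9999 and -1.31 for the 3 treatments with it, all called.

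TJP1 rose with ABBV-075. It had 47.9, 52.0 and 65.2 CPM in DMSO and 78.2, 84.5 and 68.8 with ABBV-075, which do not overlap. The rise was 0.47 (SE 0.148, adjusted p = 0.0246), and 0.46 with GC correction. It lost its call without DMSO replicate 1 or 2 or ABBV-075 replicate 2, with values from 0.38 to 0.61. ABBV-744 did not call TJP1 (-0.10, adjusted p = 0.649 at 50 nM and 0.13, adjusted p = 0.533 at 500 nM), nor with GC correction (-0.02 and 0.17). With IFNγ, TJP1 ranged from 45.6 to 54.0 CPM without inhibitor and from 67.3 to 69.9 with ABBV-075, a rise of 0.44 (SE 0.119, adjusted p = 0.00172) that was called without each library in turn and was 0.48 with GC correction. With ABBV-744 it rose by 0.30 (adjusted p = 0.0287) at 50 nM, not called with GC correction (0.21) or without IFNγ replicate 3 or treated replicate 1 (lowest value 0.19), and by 0.39 (adjusted p = 0.00975) at 500 nM, not called without IFNγ replicate 3 or treated replicate 2 (lowest value 0.31) but called with GC correction, at 0.40.

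In edgeR's fit on all libraries compared, without GC correction, OCLN was not called with any treatment. On top of IFNγ with ABBV-075 it was called lower without treated replicate 2, with values from -0.53 to -0.19 when single libraries were left out. It had 16.8, 18.1 and 21.5 CPM in DMSO and 19.0, 18.9 and 19.8 with ABBV-075, with a log2 fold change of 0.01 (95% interval -0.36 to 0.39, adjusted p = 0.958), or -0.28 (adjusted p = 0.2) with GC correction. Over all 24 libraries it ranged from 13.6 to 25.1 CPM and every treated group overlapped its control. With GC correction, OCLN was lower with each inhibitor on top of IFNγ, at -0.76, -0.66 and -0.56 (adjusted p = 0.000133, 0.00205 and 0.00514), against -0.34, -0.07 and -0.11 without correction. OCLN, CLDN1 and CLDN12 are the most GC-poor of the 10 genes.

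At the matched dose of 50 nM, ABBV-075 and ABBV-744 differed in 5 of the 9 genes tested without IFNγ (40.8% of all genes) and 6 of 9 with it (33.7%), as far as equal treatment times can be assumed. KRT23 was lower with ABBV-075, at -1.65 (SE 0.187, adjusted p = 0.000403) without IFNγ and -1.45 (SE 0.183, adjusted p = 2.42e-08) with it, and GC correction left -1.44 and -1.48. CDH1 was lower, at -0.97 (SE 0.27, adjusted p = 0.0169) without IFNγ, a call lost without ABBV-075 replicate 1 or ABBV-744 replicate 1 or 2 (values from -1.07 to -0.86). With IFNγ its difference was -1.28 (SE 0.398, adjusted p = 0.0103), and -0.57 and not called without replicate 1 of IFNγ with ABBV-744. DESeq2 called neither difference of CDH1 (adjusted p = 0.104 and 0.0921). CLDN2 did not pass the filter on low counts here. Its summed counts were 7 against 30, 4.84-fold lower with ABBV-075 (exact interval 2.08 to 13.04), and 2 against 27 with IFNγ, 13.1-fold lower (3.30 to 114). DESeq2, which has another filter, called it lower in both (adjusted p = 0.0405 and 0.0185).

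Other differences between the compounds were smaller. Without IFNγ, CLDN12 was higher with ABBV-075 by 0.79 (adjusted p = 0.011), TJP1 by 0.59 (adjusted p = 0.015), and KRT19 was lower, at -0.48 (adjusted p = 0.0138). GC correction left 0.09, 0.50 and -0.12, of which TJP1 alone stayed called. TJP1 was not called without ABBV-075 replicate 2 or ABBV-744 replicate 2 or 3 (lowest value 0.51), nor KRT19 without replicate 2 of either group (values from -0.56 to -0.39). With IFNγ, KRT8, KRT18 and KRT19 were higher with ABBV-075 than with ABBV-744 by 0.58, 0.39 and 0.71 (adjusted p = 1.98e-07, 0.0013 and 1.43e-07), and CLDN1 was lower, at -0.45 (adjusted p = 0.000286). These were called with GC correction too, at 0.44, 0.26, 0.44 and -0.35. TJP1 was at 0.21 (adjusted p = 0.122) there, and at 0.28 (adjusted p = 0.0171) and called with GC correction. For OCLN the difference was 0.19 without IFNγ (95% interval -0.20 to 0.57) and -0.19 with it (-0.56 to 0.18).

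In the fit without a replicate block, the 2 doses of ABBV-744 were not told apart for these genes in cells without IFNγ. edgeR called 0 of 10 genes (0.0274% of all genes), 1 at an unadjusted p under 0.05 (KRT18), and DESeq2 called 0. Differences of 500 nM from 50 nM were -0.15 for KRT23 (95% interval -0.48 to 0.18), 0.04 for CLDN2 (-0.87 to 0.95) and 0.03 for CDH1 (-0.56 to 0.62). With IFNγ, KRT19 was the 1 gene called of 9 (1.7% of all genes), higher at 500 nM by 0.41 (SE 0.0936, adjusted p = 0.0121), but 0.23 and not called with GC correction, nor without replicate 1 or 2 of the 50 nM group or 2 or 3 of the 500 nM group (values from 0.31 to 0.47). KRT23 was at -0.30 (interval -0.61 to 0.01, adjusted p = 0.375) with no overlap between the doses.

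IFNγ alone against DMSO called 0 of 10 genes in edgeR (3.46% of all genes), 2 at an unadjusted p under 0.05 (KRT19 at -0.23 and CLDN12 at -0.30), and DESeq2 called 0. With GC correction KRT19 was called, at -0.31 (adjusted p = 0.000901). The effects of the inhibitors with and without IFNγ were compared by an interaction term. For ABBV-075, edgeR called 0 of 10 interactions (0.0347% of all genes), 2 at an unadjusted p under 0.05 (KRT18 and CDH1), and DESeq2 called 0. The difference for CDH1 was -1.02 (95% interval -1.80 to -0.24, adjusted p = 0.65), for CLDN2 -1.79 (-3.75 to 0.17, adjusted p = 0.76) and for KRT23 -0.05 (-0.48 to 0.37, adjusted p = 0.972). KRT18 passed there without ABBV-075 replicate 1, at -0.64. In simulated counts of this comparison, the same fit found 91 of 99 interactions of 2 on the log2 scale and 53 of 98 of 1. The simulation gave all genes the same variability between libraries and no GC tilt. It therefore does not measure what the test could find in the real libraries.

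For ABBV-744, 5 of 10 interactions passed at 50 nM (51.6% of all genes) and 6 at 500 nM (33.5%). CLDN1, CLDN12, KRT8, KRT18 and KRT19 passed at both doses and CDH1 at 500 nM. At 50 nM the interaction of CDH1 was -0.66 in edgeR (adjusted p = 0.16), with values from -1.37 to -0.40 when single libraries were left out. It was called there without replicate 1 of IFNγ with ABBV-744. The call of CDH1 at 500 nM was lost in 6 of 12 such fits, so the doses are not shown to differ for CDH1. For CLDN12 and CLDN1, which are GC-poor, the effect of ABBV-744 was higher with IFNγ than without. The effect was lower for KRT8 and KRT19, which are GC-rich, and for KRT18, which at 55.7% GC lies just under the GC-rich limit of 55.9%. The GC tilt of the ABBV-744 libraries was positive without IFNγ and negative with it. With GC correction 3 interactions passed at 50 nM: KRT18 at -0.47 (adjusted p = 0.0018), KRT19 at -0.47 (adjusted p = 0.000632) and OCLN at -0.77 (adjusted p = 0.0156). At 500 nM they were KRT19 at -0.30 (adjusted p = 0.0254) and OCLN at -0.74 (adjusted p = 0.0127). Interactions of KRT23 were -0.22 and -0.38 (adjusted p = 0.259 and 0.0881) and of CLDN2 -0.54 and -0.99 (adjusted p = 0.343 and 0.117), none called.

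**Figure D4:**
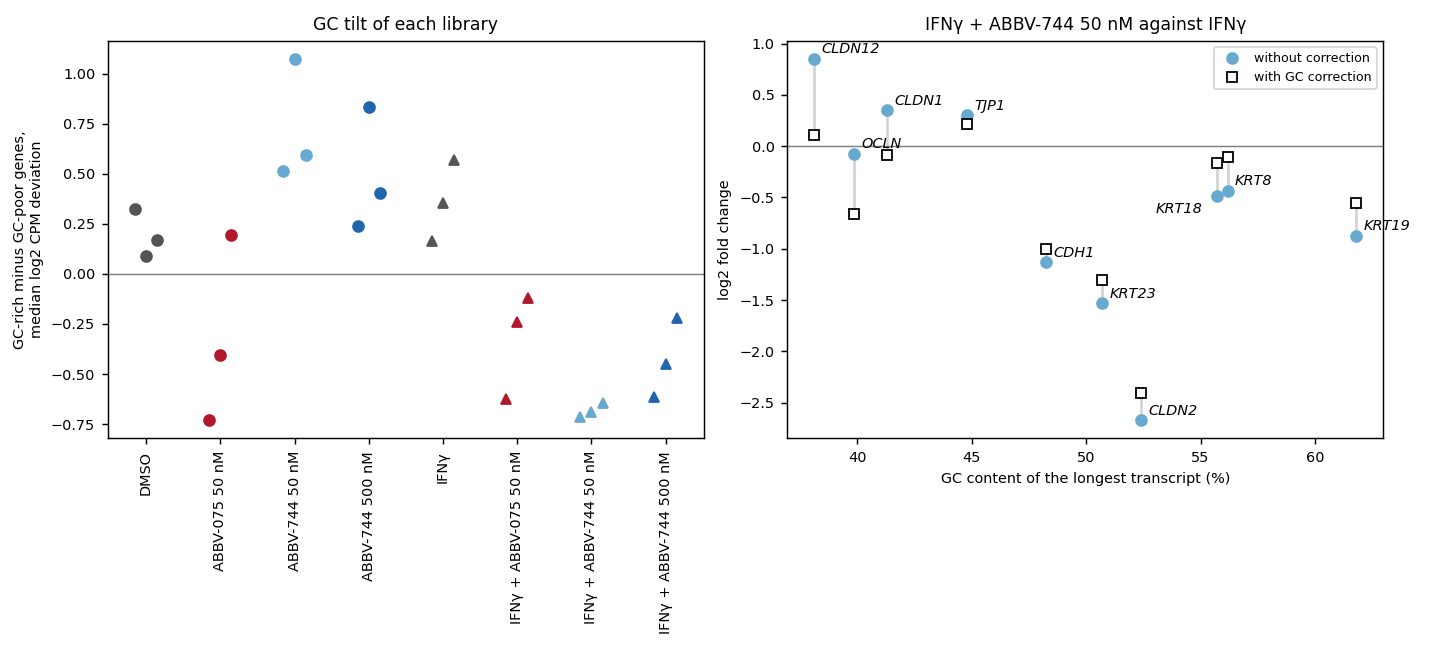
On the left, the GC tilt of each library (points), the median log2 CPM deviation of GC-rich genes minus that of GC-poor genes; on the right, the log2 fold change of each gene in IFNγ with ABBV-744 at 50 nM against IFNγ, over the GC content of its longest transcript, without (circles) and with (squares) GC correction. The 3 libraries of that group have tilts of -0.712 to -0.647, and the correction brings CLDN12 from 0.85 to 0.11 and KRT8 from -0.44 to -0.10 while CLDN2 stays at -2.40.

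Other genes of junctions and filaments moved in both directions with ABBV-075. Of 20 other claudins 5 were tested, and 3 were lower and 0 higher (19.6 and 19.8% of all genes). Their median log2 fold change was -0.77, and that of all genes 0.03. CLDN11 was at -1.91 (adjusted p = 0.00189) and CLDN4, a barrier claudin, at -0.99 (adjusted p = 0.00427). Of 21 other tight junction genes tested 4 rose and 6 fell, with the membrane protein MARVELD3 at -2.13 and the scaffolds MPDZ and MAGI3 at 1.31 and 1.20. Of 12 other adherens junction genes 3 rose and 2 fell: NECTIN4 (listed as PVRL4), a nectin, was at -3.59 (adjusted p = 1.75e-05), with 17.6 CPM in DMSO and 1.39 with ABBV-075, while the actin binder LIMA1 was at 0.91 and afadin (listed as MLLT4) at 0.70.

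Of 8 desmosome genes tested with ABBV-075, 1 rose (PKP2, 0.46) and 3 fell, with plakophilin 3 (PKP3) at -1.54 (adjusted p = 0.000127) and desmocollin 2 (DSC2) at -1.31 (adjusted p = 0.000306). Of 2 gap junction genes, GJB1, the main connexin of hepatocytes, fell by 1.11 (adjusted p = 5.01e-05). Of 37 other keratin genes only 2 were tested, and KRT80 was at -2.04 (adjusted p = 0.0006). Of 5 genes that link keratins 3 rose, with periplakin (PPL) at 1.16 (adjusted p = 0.00113). Of 4 epithelial transcription and splicing factors tested GRHL1 was at 0.75 (adjusted p = 0.00312) and ESRP2 at -0.54 (adjusted p = 0.0282), and of 3 mesenchymal genes tested 1 rose and 1, SPARC, fell (-0.70, adjusted p = 0.00621). The medians of these lists lay between -0.91 and 0.64.

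With ABBV-744 at 50 nM NECTIN4 was at -1.11 (adjusted p = 0.00112) and at 500 nM at -1.33 (adjusted p = 0.000117), and DSC2 was at -0.84 and -0.68. CLDN11 was called at 500 nM (-0.98, adjusted p = 0.00396). PPL was at 0.86 and 1.11, of which GC correction left 0.64 (adjusted p = 0.0749), no longer called, and 0.97. Plectin (PLEC), the large linker of keratins, was at 0.79 (adjusted p = 0.000349) and 0.69 (adjusted p = 0.00147). On top of IFNγ, CLDN4 and CLDN11 were lower with all 3 treatments (CLDN4 -1.30, -1.09 and -1.31), and so was NECTIN4 (-3.21, -1.25 and -1.57). These held with GC correction, at -1.05, -0.75 and -1.03 for CLDN4 and -2.94, -0.92 and -1.28 for NECTIN4. Of 3 mesenchymal genes tested on top of IFNγ, 2, FN1 and SPARC, fell with all 3 treatments. The other, the repressor of epithelial genes ZEB1, rose by 1.51, 1.64 and 1.58, or 0.98, 0.92 and 1.01 with GC correction. Of all genes, 56.6, 51.7 and 45.7% were called in these comparisons.

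Likeness was taken as the Pearson correlation of log2 CPM over the 24 libraries, which share the 8 treatments, the depth and the GC tilt, so it is a description only. The gene most like CLDN2 was KRT23 (r = 0.96), followed by ADH4 and ANG (both 0.95). This order was not stable. With 0.5 instead of 2 as the count added before the log, ADH4 (0.960) and DKK1 (0.947) came before KRT23 (0.945). Over the 12 libraries without IFNγ, TNFRSF10A, MRPL15 and PDZK1 came first, and KRT23 had r = 0.93. The genes most like KRT23 and CDH1 also changed over those 12 libraries. The values that follow are over all 24. Most like KRT23 were TM4SF1, ITIH2 and AKR1C3 (all 0.98), and most like CDH1 were DDX17 (0.91), HERPUD1 and RCOR2 (both 0.90). CDH1 and CLDN2 had r = 0.89, and CDH1 and KRT23 0.88. Among the other members, KRT8 and KRT19 had r = 0.92, KRT8 and KRT18 0.81, and CLDN1 and KRT8 -0.90. OCLN had no gene above 0.69.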

How the data were processed

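RNA of HepG2 cells was depleted of rRNA, made into directional libraries and sequenced on the Illumina 2500. Per the labels and the authors' methods, base calls came from CASAVA 1.8.2, reads were trimmed with Trimmomatic 0.33 and aligned to hg38 with STAR 2.7.1, and the authors tested with DESeq2. The deposited values are STAR read counts per gene symbol, not normalised, and reads mapped to several places are left out. Column 4, the strand-matched counts, held 98.3 to 98.5% of strand-assigned reads and was used.

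Genes passing filterByExpr were scaled by TMM and tested with edgeR 4.0.16 in R 4.3.3 (quasi-likelihood test, Benjamini-Hochberg adjustment over all genes tested, threshold 0.05), on the libraries of the 2 groups compared, or of 4 groups for an interaction. CPM used TMM over all 24 libraries. Counts per library limit precision, and exact 95% intervals of count ratios cover counting error only. Gene positions and lengths came from GENCODE 44, matched for 92.7% of symbols. The members and lists were chosen with earlier results of these data known. All 10 members were named, and from each list at most 3 genes per comparison by size of change, among those called with groups that do not overlap and a mean log2 CPM of at least 1. The lists were cell type markers (hepatocyte, bile duct, fibroblast, endothelial, leukocyte) and junction, keratin and epithelial genes.

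On simulated counts for ABBV-075 against DMSO, the fit called 99 of 99 genes changed by 2 on the log2 scale, 82 of 95 changed by 1 and 9 of 10979 unchanged. Here too all genes had the same variability between libraries and there was no GC tilt. These rates therefore check the code and do not measure missed or false calls in the real libraries. Alternatives were DESeq2 1.42.0, RLE factors, library size only, other filters, all 24 libraries in 1 fit, a replicate block, both strands, a lowess correction on GC content (span 0.3) and leaving out each library.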

Additional observations from a re-analysis of the deposited data

Results flagged for a closer look

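The following 11 differences between the effect of ABBV-744 with IFNγ and without it passed edgeR's quasi-likelihood interaction test, and each is a difference of log2 fold changes (with IFNγ minus without). At 50 nM they were 0.77 for CLDN1 (adjusted p = 0.000765), 1.31 for CLDN12 (adjusted p = 3.78e-06), -0.72 for KRT8 (adjusted p = 3.03e-06), -1.01 for KRT18 (adjusted p = 4.02e-07) and -1.06 for KRT19 (adjusted p = 1.73e-07). At 500 nM they were 0.46 for CLDN1 (adjusted p = 0.0229), 0.82 for CLDN12 (adjusted p = 0.0019), -1.01 for CDH1 (adjusted p = 0.0314), -0.39 for KRT8 (adjusted p = 0.0166), -0.45 for KRT18 (adjusted p = 0.0105) and -0.63 for KRT19 (adjusted p = 0.00115). Beside them, 51.6 and 33.5% of all genes passed the same tests.

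With GC correction the values at 50 nM were 0.16 for CLDN1 (adjusted p = 0.482), 0.29 for CLDN12 (adjusted p = 0.19), -0.17 for KRT8 (adjusted p = 0.167), -0.47 for KRT18 (adjusted p = 0.0018) and -0.47 for KRT19 (adjusted p = 0.000632). At 500 nM they were 0.02 for CLDN1, 0.04 for CLDN12, -0.81 for CDH1, 0.00 for KRT8 and -0.06 for KRT18, none called, and -0.30 for KRT19 (adjusted p = 0.0254). At 500 nM the calls of CDH1, CLDN1 and KRT8 were also lost when single libraries were left out, in 6, 5 and 4 of 12 fits, with values from -1.29 to -0.85, 0.38 to 0.58 and -0.47 to -0.28. No member's 3 libraries could be tested for outliers, since groups of 3 are too small.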

How the results depend on the processing

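Under every alternative run, the calls of CLDN2 and KRT23 in the 6 comparisons of an inhibitor with its control were kept wherever a test was given, and DESeq2 gave CLDN2 no adjusted p with ABBV-744 at 50 nM. GC correction changed most. Of 137 member results, 102 kept their call or their lack of one, 17 lost the call and 10 gained it. The other 8 reversed sign with a call in at least 1 of the fits. Of the 102, 16 changed sign but were called in neither fit. The reversed values were -0.020 for CLDN12 (IFNγ with ABBV-075), -0.086 for CLDN1 (IFNγ with ABBV-744 at 50 nM), -0.27 for CLDN1, -0.16 for CLDN12, 0.043 for KRT8 and 0.037 for KRT18 (IFNγ with ABBV-744 at 500 nM), and, for the interactions of ABBV-744 with IFNγ, -0.77 for OCLN at 50 nM and 0.0033 for KRT8 at 500 nM. The cause was not tested. GC correction changed the number of members called from 5 to 3 with ABBV-744 at 50 nM and from 0 to 1 with IFNγ. With IFNγ and ABBV-744 at 50 nM the number went from 9 to 5. Between the compounds without IFNγ it went from 5 to 3, and between the doses with IFNγ from 1 to 0. For the interactions of ABBV-744 at 50 and 500 nM it went from 5 to 3 and from 6 to 2. Only the larger changes in number are listed here. Calls were also gained elsewhere, as for CLDN1 and KRT18 with ABBV-075 against DMSO. With library size only, IFNγ called 1. With all 24 libraries in the fit, 0 were called between the doses with IFNγ and 2 for the interaction at 500 nM. DESeq2 kept 124 of 132 results and lost 7 calls (CLDN1 with ABBV-744 at 500 nM, KRT19, TJP1 and KRT18 on top of IFNγ with ABBV-075, ABBV-744 at 50 nM and at 500 nM, CDH1 between the compounds with and without IFNγ and in the interaction at 500 nM). Of the other genes named, DESeq2 did not call MPDZ, PKP2 and ESRP2 with ABBV-075 (adjusted p = 0.0821, 0.0915 and 0.0540) or CLDN11 on top of IFNγ with ABBV-744 at 50 nM (0.110). RLE factors kept 136 of 137, both strands together 134 of 137, no filter 134 of 137 and at least 10 counts in every library 124 of 124.

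Leaving out each library gave 3 to 6 called members with ABBV-075, 3 to 6 and 2 to 5 with ABBV-744 at 50 and 500 nM, and 0 with IFNγ. On top of IFNγ it gave 5 to 7, 8 to 9 and 4 to 8. Between the compounds it gave 2 to 7 and, with IFNγ, 5 to 7, between the doses 0 and 0 to 3, and for the 3 interactions 0 to 1, 5 to 6 and 3 to 6. The replicate numbers did not clearly pair the libraries: same-numbered libraries had correlations of deviations from -0.181 to 0.336, and in no comparison were all above 0.1. Between the doses of ABBV-744 without IFNγ all were positive, at 0.250, 0.333 and 0.0577, so a pairing there is possible. A replicate block kept 132 of 137 results, and it called 1 member between the doses of ABBV-744 without IFNγ and 2 with it. Among all genes it called 320 between the doses without IFNγ, against 3 without the block.

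Among all genes, GC correction changed the number called from 2102 to 1196 (ABBV-744 at 50 nM), 5766 to 3841 (the same with IFNγ), 187 to 99 (doses with IFNγ), and 5905 to 2333 and 3827 to 1913 (interactions of ABBV-744). DESeq2 called 1157 with ABBV-744 at 50 nM and 977, against 1700, at 500 nM. Scaling by library size only moved the median log2 fold change of all genes from 0.00 to -0.10 for ABBV-744 at 50 nM, from 0.01 to -0.12 between the compounds with IFNγ, and from -0.14 to 0.04 for the interaction at 50 nM. The split of higher and lower calls moved from 979 and 1123 to 415 and 1220 for ABBV-744 at 50 nM, from 832 and 868 to 475 and 1067 at 500 nM, from 310 and 78 to 250 and 204 for IFNγ, and from 1860 and 1892 to 1166 and 2836 between the compounds with IFNγ. Depth limits CLDN2 and CDH1, whose counts fell to 0 and 6 in single libraries.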
